A study of Mus musculus with 10 samples.

Results

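Messenger RNAs of cytokines are short-lived, and a small set of RNA-binding proteins and ribonucleases sets how fast they are degraded. Described here are the genes of 7 such regulators, chosen by name and found by their symbols in the deposited expression table, where all 7 were present among 16936 protein-coding genes. They are Zfp36, Zfp36l1 and Zfp36l2 of the ZFP36 family, the Regnase genes Zc3h12a and Zc3h12c, the Roquin gene Rc3h1, and Elavl1. The samples were mouse bone marrow-derived macrophages, which are cultured cells grown out of marrow for 7 days with the growth factor GM-CSF at 50 ng/mL. In 1 group 5 samples were left untreated, and in the other 5 samples received PLG, which the study's design text gives as human plasminogen, for 24 h. Both groups had the same GM-CSF culture, and the labels give no strain, genotype, sex or age and no control for the added preparation. Nothing in the labels ties a sample to its own mouse or culture, so p-values measure only the spread between these samples, which may be technical.

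ZFP36 proteins bind AU-rich elements, stretches of A and U in the 3′ untranslated region (3′ UTR) of cytokine mRNAs, and recruit the CCR4-NOT complex, which removes the poly(A) tail. Regnase proteins cut stem-loops in such mRNAs themselves, and Roquin binds stem-loops and recruits the decay machinery. ELAVL1, also called HuR, binds AU-rich and U-rich elements too, but is known for stabilising the mRNAs it binds. In macrophages several of these genes are known as inducible feedback regulators of the inflammatory response.

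Expression was deposited as FPKM, fragments normalised to gene length and to the reads of the sample. Levels of different genes can be compared only as far as the deposited lengths match the transcripts present. For Zfp36 this length was 3470 bases, its whole span in the genome, although its annotated transcript has 2 exons. Those of Zfp36l1 and Zfp36l2 were 2990 and 3530 bases, below their spans. A length that is too long makes FPKM too low beside other genes, but leaves the ratio between groups as it is. The reads behind the table, recovered from the steps between low values, came to 28426101 to 64214532 per sample, and each value of the 7 genes rested on 1028 to 22619 reads. The label was checked against 7 macrophage markers, and each of Adgre1, Cd68, Csf1r, Itgam, Lyz2, Fcgr1 and Mertk reached 1 FPKM. Their summed level was 5842 to 7357 FPKM in untreated and 2565 to 2777 FPKM in PLG samples, with Lyz2, the most abundant, going from 5792 ± 561 to 2000 ± 77.9 FPKM (SD, n = 5 per group). Lyz2 made up most of this sum, and most other markers of the list were lower with PLG too. Mertk went from 23.5 ± 2.13 to 6.19 ± 0.546 FPKM and Itgam from 38.2 ± 4.97 to 22.4 ± 3.81 FPKM. Cd68 went from 356.1 ± 27.9 to 243.5 ± 9.27 FPKM and Csf1r from 244.5 ± 6.91 to 213.5 ± 12.8 FPKM. Adgre1 and Fcgr1 did not follow: Adgre1 was at 80.0 ± 4.8 and 176.9 ± 9.79 FPKM, and Fcgr1 at 15.5 ± 4.04 and 16.7 ± 1.16 FPKM. Of 5 dendritic cell markers 3 reached 1 FPKM, and their sum was 28.5 to 55.7 FPKM in untreated and 514.7 to 581.8 FPKM in PLG samples, nearly all of it Ccr7. Of the neutrophil markers 3 of 6 measured reached 1 FPKM, with sums of 7.49 to 18.1 and 14.8 to 23.2 FPKM. The lymphocyte markers (6 measured) and the stromal and erythroid markers (4 measured) had 0 genes at 1 FPKM, with sums of at most 1.12 FPKM in any sample. The macrophage and dendritic sums lay apart between the groups and the other 3 overlapped, and the part of these markers in the results below was not tested. In bulk RNA, fewer cells of a type and less RNA per cell cannot be told apart. The samples untreated 2, PLG 3 and PLG 4 stood apart in 4 abundant repeat-like gene models, which took 0.134% to 0.815% of their reads against 2.17% to 6.05% elsewhere. Without these 3 samples the same direction was found for each of the 7 genes, and 6 were again called.

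Of the 7 regulators 4 rose and 2 fell with PLG, while the test did not call Elavl1. The test was limma on log2(FPKM + 1) over the 9997 genes that reached 1 FPKM in at least 5 samples, with Benjamini-Hochberg adjustment and a threshold of 0.05, and all 7 genes were among those tested. This response covered much of the transcriptome: 60.4% of all tested genes were called, 29.1% higher and 31.3% lower with PLG. The FPKM of the 2 groups did not overlap for 6 of the 7 genes, against 47.2% of all tested genes. A count of 6 of 7 is therefore to be read against a background in which most genes changed. The median log2 fold change of the 7 genes was 0.85, and that of all tested genes was -0.02. Each of the 6 called genes had an exact two-sided permutation p of 0.00794, the smallest that 252 assignments of 5 and 5 samples can give. Groups that do not overlap always give this value, so it restates the count above and adds no support. Fold changes below are on the log2(FPKM + 1) scale unless a ratio of FPKM is named.

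**Figure D1:**
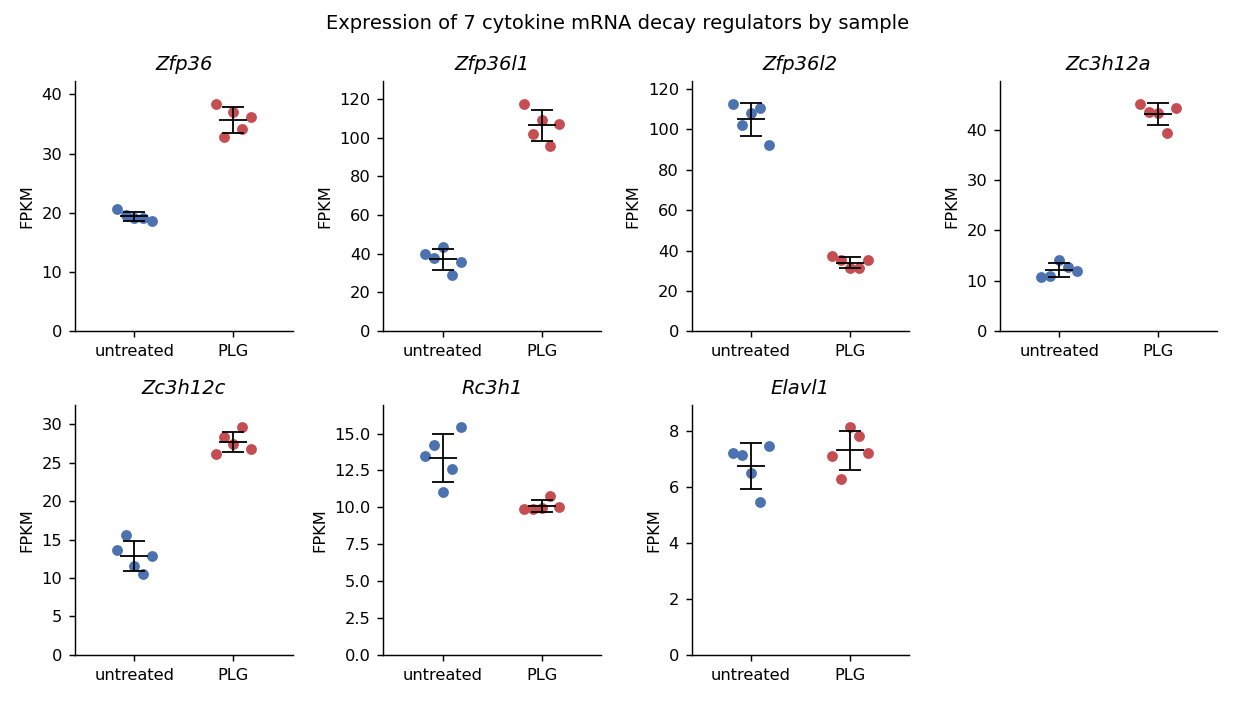
FPKM of each of the 7 regulators (vertical axes from 0, a scale of its own for each gene) in the 5 untreated (blue) and 5 PLG (red) samples; each point is 1 sample, and the black bars are the mean and SD. Zfp36, Zfp36l1, Zc3h12a and Zc3h12c lay higher in every PLG sample, Zfp36l2 and Rc3h1 lower in every PLG sample, and the groups of Elavl1 overlapped.

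The ZFP36 family changed in its composition. Zfp36, which encodes tristetraprolin, and Zfp36l1 rose with PLG, while Zfp36l2, the most abundant member in untreated cells, fell. Zfp36 (ENSMUSG00000044786.6, chr7:28376784-28380253, minus strand, GRCm38) was at 20.6, 19.6, 19.1, 19.1 and 18.6 FPKM in untreated samples 1 to 5 and at 38.4, 32.9, 37.0, 34.1 and 36.3 FPKM in PLG samples 1 to 5. The untreated samples lay close together and every PLG sample was far above them. The mean went from 19.4 ± 0.758 to 35.7 ± 2.23 FPKM, a ratio of 1.84 and a log2 change of 0.85 (SE 0.0526, 95% interval 0.73 to 0.96, limma adjusted p = 7.68e-09). By size of rise it ranked 997 among the 9997 tested genes.

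Zfp36l1 (ENSMUSG00000021127.7, chr12:80107754-80113013, minus strand), whose product binds the same class of AU-rich element, was at 39.6, 37.8, 43.5, 28.8 and 35.8 FPKM in untreated samples 1 to 5. In PLG samples 1 to 5 it was at 117, 102, 109, 95.9 and 107 FPKM. Untreated 4 was the lowest of its group, and the lowest PLG sample stood at more than the highest untreated level. Its mean went from 37.1 ± 5.43 to 106.3 ± 8.05 FPKM, a ratio of 2.86 and a log2 change of 1.50 (SE 0.0918, limma adjusted p = 6.35e-09). In the PLG samples it was the most abundant of the 7 regulators.

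Zfp36l2 (ENSMUSG00000045817.8, chr17:84183931-84187947, minus strand), the third AU-rich element binding protein of the family, was at 113, 102, 108, 110.4 and 92.1 FPKM in untreated samples 1 to 5. In PLG samples 1 to 5 it was at 37.4, 35.1, 31.3, 31.3 and 35.1 FPKM. All PLG samples lay far below the lowest untreated sample, untreated 5. The mean fell from 105.1 ± 8.23 to 34.0 ± 2.68 FPKM, so the untreated level was 3.09 times the PLG level (log2 change -1.60, SE 0.066, limma adjusted p = 1.21e-10). Among the 9997 tested genes in order from the largest rise to the largest fall it stood at place 9833.

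The 3′ UTRs of the family members themselves carry the nonamer TTATTTATT, the core of the AU-rich element that ZFP36 proteins bind, and these sites are shown because the family is known to act on its own mRNAs. The longest 3′ UTR in GENCODE release M21 held 1 nonamer in Zfp36 (774 bases), 1 in Zfp36l1 (1835 bases) and 1 in Zfp36l2 (1822 bases). Each site is given 5′ to 3′ on the mRNA's strand with 27 bases of GRCm38 sequence, and capitals mark the nonamer. The sites lie at chr7:28376952-28376978, chr12:80108168-80108194 and chr17:84184915-84184941, all on the minus strand.
Zfp36: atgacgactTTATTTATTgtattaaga
Zfp36l1: actgttggaTTATTTATTttagaaatt
Zfp36l2: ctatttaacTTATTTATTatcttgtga
The 3 genes thus shared the nonamer while Zfp36 and Zfp36l1 rose and Zfp36l2 fell.

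Summed over the 3 genes, the family's levels overlapped between the groups. The sum was 161.6 ± 10.6 FPKM in untreated samples (146.6 to 173.0) and 176.0 ± 11.8 FPKM in PLG samples (161.3 to 193.3). Within the sum, Zfp36l2 took 65.0 ± 2.79% in untreated and 19.4 ± 1.08% in PLG samples. Zfp36l1 took 22.9 ± 2.82% and 60.3 ± 0.798%, and Zfp36 took 12.0 ± 0.548% and 20.3 ± 0.733%. The share of each of the 3 genes in the untreated samples lay apart from its share in the PLG samples. The sizes of the sum and of the shares depend on the deposited lengths, and that of Zfp36 is its whole span in the genome.

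**Figure D2:**
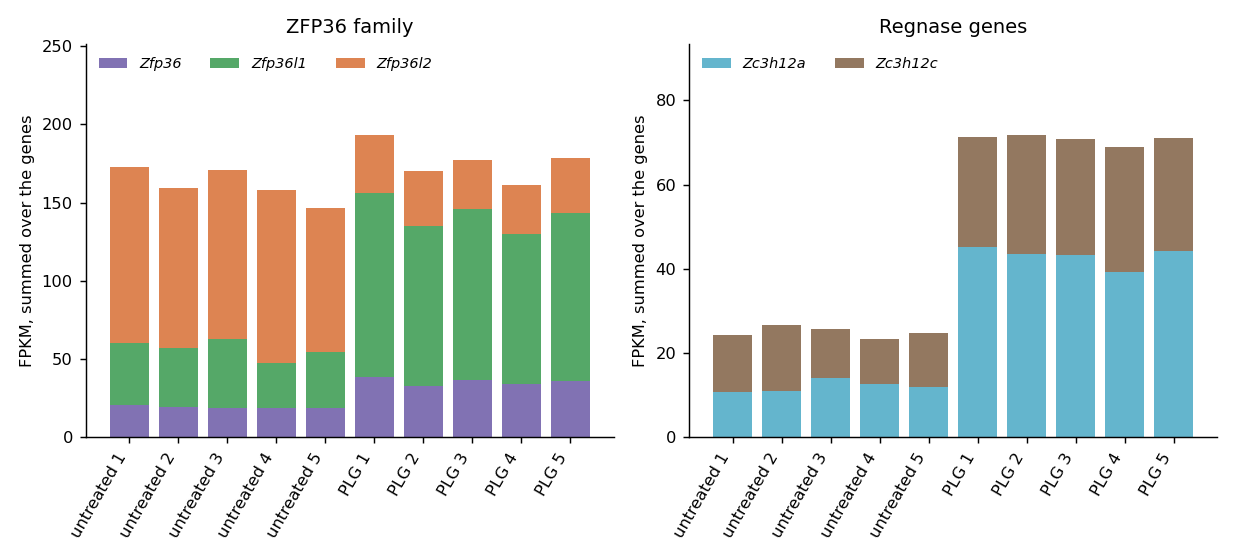
FPKM summed over the 3 ZFP36 family genes (left) and the 2 Regnase genes (right) in each sample, stacked by gene on axes that start at 0. The height of the ZFP36 bars overlaps between groups, with Zfp36l2 the largest share in every untreated sample and Zfp36l1 in every PLG sample, while the Regnase sum is higher in every PLG sample.

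The differences between family members were tested within samples, for 4 pairs of paralogs, by the difference of their log2(FPKM + 1) values. Zfp36l1 minus Zfp36l2 went from -1.49 ± 0.244 in untreated to 1.61 ± 0.0951 in PLG samples, a shift of 3.10 (SE 0.117, n = 5 per group, exact two-sided permutation p = 0.00794, 0.00794 adjusted over the 4 pairs). As a ratio of FPKM, Zfp36l1 over Zfp36l2 was 0.351 in untreated and 3.12 in PLG samples, so their order turned. Zfp36 minus Zfp36l2 shifted by 2.44 (SE 0.0671), and the ratio of FPKM went from 0.185 to 1.05. Zfp36 minus Zfp36l1 shifted by -0.66 (SE 0.0952), since Zfp36l1 rose more, and the ratio of FPKM went from 0.528 to 0.337. The exact p was 0.00794 for these pairs as well. This is the smallest possible value, reached by any pair whose differences do not overlap between the groups, and adjustment over the 4 pairs leaves it unchanged. How many other pairs of genes reach it was not tested. The ratios with Zfp36 within a group depend on its deposited length.

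Both Regnase genes rose. Zc3h12a encodes Regnase-1, an endoribonuclease that cuts stem-loops of mRNAs such as Il6 and Il12b, and had the largest rise of the 7 regulators. It (ENSMUSG00000042677.7, chr4:125118423-125127840, minus strand) was at 10.8, 11.0, 14.2, 12.7 and 12.0 FPKM in untreated samples 1 to 5 and at 45.1, 43.5, 43.2, 39.4 and 44.3 FPKM in PLG samples 1 to 5. The groups were far apart, with PLG 4 the lowest of the treated samples. The mean went from 12.1 ± 1.40 to 43.1 ± 2.21 FPKM, a ratio of 3.55 and a log2 change of 1.75 (SE 0.0709, limma adjusted p = 9.68e-11), place 372 among the tested genes by size of rise.

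Zc3h12c encodes Regnase-3, a related ribonuclease of macrophages that is known to act on the mRNA of Zc3h12a. It (ENSMUSG00000035164.8, chr9:52111344-52168572, minus strand) was at 13.6, 15.6, 11.6, 10.6 and 12.9 FPKM in untreated samples 1 to 5 and at 26.2, 28.3, 27.5, 29.6 and 26.9 FPKM in PLG samples 1 to 5. Every PLG sample was above every untreated sample. The mean went from 12.8 ± 1.94 to 27.7 ± 1.33 FPKM, a ratio of 2.16 and a log2 change of 1.06 (SE 0.0848, limma adjusted p = 1.03e-07). Summed over both genes, the Regnase level went from 24.98 ± 1.285 to 70.8 ± 1.095 FPKM. Zc3h12a rose more than Zc3h12c: the within-sample difference on the log2(FPKM + 1) scale shifted by 0.69 (SE 0.16, n = 5 per group, exact permutation p = 0.00794). The share of Zc3h12a in the sum was 48.7 ± 6.14% in untreated samples (41.4% to 55.1%) and 60.9 ± 2.35% in PLG samples (57.1% to 63.3%).

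The other 2 Regnase family genes in the table were far lower. Zc3h12d, which encodes Regnase-4, was at 2.31 ± 0.375 FPKM in untreated and 4.56 ± 0.582 FPKM in PLG samples (log2 change 0.75, limma adjusted p = 1.82e-05). Zc3h12b stayed under the filter, at 0.0978 ± 0.0871 and 0.0296 ± 0.0349 FPKM. Both were named after their values were seen, to complete the family.

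Rc3h1 encodes Roquin-1, which binds stem-loops in mRNAs of immune regulators. It (ENSMUSG00000040423.11, chr1:160906418-160974978, plus strand) was at 13.5, 14.2, 11.1, 12.6 and 15.4 FPKM in untreated samples 1 to 5 and at 9.86, 9.88, 9.93, 10.8 and 10.02 FPKM in PLG samples 1 to 5. The groups did not overlap, but untreated 3 and PLG 4 were close to each other. The mean fell from 13.4 ± 1.64 to 10.1 ± 0.387 FPKM, a ratio of 0.756 and a log2 change of -0.37 (SE 0.0768, limma adjusted p = 9.95e-04). This was the smallest change among the called regulators, and with all samples scaled to a common sum it missed the threshold (-0.32, limma adjusted p = 0.0548), over a range of adjusted p from 9.41e-06 to 0.0548 in all alternatives. With the repeat-like gene models removed before this scaling, a choice made after seeing the data, the log2 change was -0.43 (limma adjusted p = 9.91e-05). Its paralog Rc3h2, which encodes Roquin-2 and was looked up after its value was seen, also fell, from 6.10 ± 0.850 to 4.57 ± 0.350 FPKM (log2 change -0.35, limma adjusted p = 0.00408).

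Elavl1 was the only one of the 7 that did not pass. The gene (ENSMUSG00000040028.10, chr8:4285382-4325413, minus strand) was at 7.22, 7.14, 6.50, 5.46 and 7.49 FPKM in untreated samples 1 to 5 and at 7.11, 6.31, 8.14, 7.83 and 7.22 FPKM in PLG samples 1 to 5. The groups overlapped, with untreated 4 the lowest of all and PLG 3 the highest. The means were 6.76 ± 0.813 and 7.32 ± 0.708 FPKM, a log2 change of 0.10 (SE 0.0883, 95% interval -0.09 to 0.29, limma adjusted p = 0.336). The exact permutation p was 0.31. Ccl25 overlaps Elavl1 on the opposite strand and was at 0.933 to 1.64 FPKM in all samples, with means of 1.229 and 1.248 FPKM. Whether the counting used strand is not given in the sources used here, and reads of this overlapping pair may have been divided between the genes. The same holds for Zfp36, Zfp36l1 and Zfp36l2 and the non-coding RNAs annotated against them, and for Zc3h12c and Mir6244. Rc3h1 overlaps 3 gene models on its own strand, Gm37052, Gm37809 and Gm37653, with which it may share reads even under stranded counting.

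The order of levels differed between the groups. In untreated samples it was Zfp36l2, Zfp36l1 and Zfp36, each above the next in 5 of 5 samples and with ranges that lay apart, followed by Rc3h1, Zc3h12c and Zc3h12a, whose ranges overlapped, and then Elavl1. In PLG samples Zfp36l1 led, followed by Zc3h12a, then by Zfp36 and Zfp36l2, whose ranges overlapped, then by Zc3h12c, Rc3h1 and Elavl1. By these FPKM Zc3h12a moved from place 6 to place 2, while Elavl1 was the lowest in both groups. The place of Zfp36 depends on its deposited length, its whole span in the genome, and a shorter length would raise its FPKM. In PLG samples Zfp36 was at a mean of 35.7, Zc3h12a at 43.1 and Zfp36l2 at 34.0 FPKM. The order of Zfp36 beside these 2 genes, and so place 2 of Zc3h12a, is therefore not settled.

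Sites of the nonamer were also present in Rc3h1 and in Elavl1, whose product binds such elements. The longest 3′ UTR of Rc3h1 (7181 bases) held 1 and that of Elavl1 (4218 bases) held 8, while those of Zc3h12a (856 bases) and Zc3h12c (4062 bases) held 0. The shorter pentamer ATTTA occurred in all 7, from 3 times in Zfp36 and Zc3h12a to 20 times in Rc3h1. For comparison with known targets of the ZFP36 family, the densest stretch of Elavl1 (chr8:4285785-4285811, minus strand) is set beside those of the cytokine genes Tnf (chr17:35199679-35199705, minus) and Cxcl2 (chr5:90905337-90905363, plus) and of Ptgs2 (chr1:150105791-150105817, plus), which makes prostaglandins. The single site of Rc3h1 lies at chr1:160970044-160970070 on the plus strand. Capitals mark the nonamer, overlapping copies included.
Rc3h1: ctttactcaTTATTTATTgagatgagg
Elavl1: gaaaaTTATTTATTTATTTATTTATTt
Tnf: atttaTTATTTATTTATTATTTATTta
Cxcl2: tctatgtatTTATTTATTTATTaattc
Ptgs2: tgaccatatTTATTTATTtatgtgaag
In Elavl1 4 overlapping copies lay in these 27 bases, in Tnf 3, in Cxcl2 2 and in Ptgs2 1.

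Genes with and without the nonamer were called in both directions. Of 9931 tested genes with an annotated 3′ UTR, 816 (8.22%) held at least 1 nonamer, and of these 32.0% were called higher and 30.3% lower with PLG. Among the 9115 genes without it the shares were 29.0% and 31.4%. The median log2 fold changes were -0.004 and -0.017. Genes with the nonamer had longer 3′ UTRs, with a median of 2339 against 1089 bases. These shares are descriptions and were not tested.

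Several mRNAs known as ZFP36 targets through AU-rich elements rose. Of 14 listed genes 11 were tested, 10 rose, 0 fell and 1 did not pass, where 29.1% of all tested genes rose and 31.3% fell. In 4 of the tested genes, Ptgs2 among them, every untreated sample was under 1 FPKM, so that these passed the filter only through the PLG samples and had to differ, and the count is a description. Leaving out any single PLG sample left 7 genes tested, of which 6 were called. Tnf and Cxcl2 are outside the rule for named genes and were chosen after their values were seen, since their sites are shown. Tnf, the gene of tumor necrosis factor, was at 10.2 to 15.4 FPKM in untreated and 107 to 125 FPKM in PLG samples (13.6 ± 2.0 and 118 ± 6.85 FPKM, log2 change 3.04, SE 0.089, limma adjusted p = 4.80e-12). Il1b, the gene of interleukin 1 beta, went from 1.33 ± 0.438 to 1323 ± 85.9 FPKM, with 0 nonamers and 4 pentamers in its 3′ UTR. Ptgs2 went from 0.629 ± 0.258 to 218.7 ± 6.49 FPKM, and the chemokine gene Cxcl2 from 0.742 ± 0.520 to 220.9 ± 20.2 FPKM. The chemokine gene Ccl2 did not pass, with 51.4 ± 6.78 and 58.3 ± 6.37 FPKM (limma adjusted p = 0.107). Il10, Csf2 and Il23a were under the filter. Of the 14 genes 7 held a nonamer, and the most was 5 in Tnf.

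Targets of Regnase-1 and Roquin that carry stem-loops moved in both directions. Of 12 listed genes 9 were tested, 8 rose and 1 fell, beside the 29.1% and 31.3% of all tested genes. For Il6, Icos and Lcn2, 3 of the 8, every untreated sample was under 1 FPKM, so they passed the filter only through the PLG samples and had to differ. Without untreated 2, PLG 3 and PLG 4 there were 5 tested, of which 4 were called. Il12b, a subunit of interleukin 12, went from 1.14 ± 1.04 to 190.5 ± 22.8 FPKM, and Lcn2, which binds iron-carrying siderophores, from 0.597 ± 0.224 to 182 ± 13.1 FPKM. Nfkbiz, whose product is a nuclear cofactor of inflammatory gene transcription and which was chosen after its values were seen, went from 1.84 ± 0.452 to 18.6 ± 0.783 FPKM. Tfrc, the transferrin receptor gene, fell from 10.7 ± 1.04 to 7.22 ± 0.585 FPKM (log2 change -0.50, limma adjusted p = 5.80e-05). These are levels of RNA and do not measure rates of decay. Il6 stands on both lists, and Calcr, Ctla4 and Il2 were under the filter. The dendritic marker Ccr7 moved with both lists, from 38.1 ± 10.8 to 541.9 ± 27.1 FPKM, and its part in them was not tested.

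**Figure D3:**
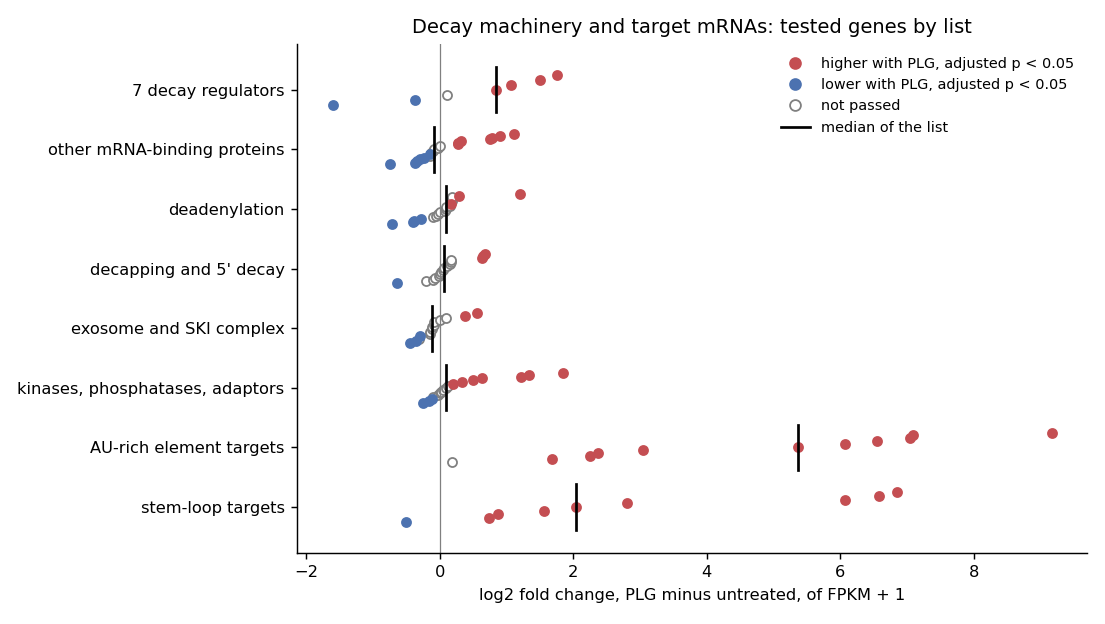
Log2 fold change of FPKM + 1, PLG minus untreated (horizontal axis), of each tested gene in the 7 regulators and 7 lists of the decay machinery and its targets; red and blue points passed the limma test (higher and lower with PLG), open points did not, and black lines are list medians. The 3 lists of the general decay machinery have medians between -0.11 and 0.09, and the 2 lists of target mRNAs lie mostly to the right, 4 and 3 of their genes having passed the filter only through the PLG samples.

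Proteins that act on the regulators themselves were called at about the share of all genes. Of 19 listed kinases, phosphatases, adaptors and proteases 17 were tested, 7 rose, 3 fell and 7 did not pass, which is 58.8% called, beside 60.4% of all tested genes, with a median log2 fold change of 0.10. Mapkapk2 encodes MK2, the kinase that phosphorylates tristetraprolin downstream of p38 and thereby holds it back. It was at 69.2 to 77.8 FPKM in untreated and 176 to 208 FPKM in PLG samples, means of 74.8 ± 3.32 and 190.7 ± 12.3 FPKM (log2 change 1.34, limma adjusted p = 6.62e-11). Dusp1, the phosphatase that switches off p38, was at 7.62 to 8.44 and 31.4 to 32.9 FPKM, means of 8.26 ± 0.355 and 32.2 ± 0.575 FPKM (log2 change 1.84, limma adjusted p = 1.35e-12). Neither range overlapped the other group's. Mapk14, the gene of p38 alpha, fell from 24.8 ± 1.3 to 20.7 ± 1.06 FPKM (log2 change -0.25, limma adjusted p = 0.00103). Malt1, the protease that cuts Regnase-1 and Roquin-1, was outside the rule for named genes and was looked up after its values were seen. It rose from 17.7 ± 1.73 to 42.4 ± 1.23 FPKM (log2 change 1.22, limma adjusted p = 1.18e-09). The 14-3-3 gene Ywhah, from a family of adaptors that bind phosphorylated tristetraprolin, fell slightly, from 49.3 ± 2.18 to 44.0 ± 3.64 FPKM (limma adjusted p = 0.0276), with groups that overlapped. Ywhaz of the same family did not pass (limma adjusted p = 0.449).

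Among other mRNA-binding proteins of cytokine mRNA turnover 19 of 20 listed genes were tested. Of these 7 rose, 6 fell and 6 did not pass, which is 68.4% called, near the 60.4% of all tested genes, with a median log2 fold change of -0.09. Arid5a, whose product stabilises Il6 mRNA against Regnase-1, went from 1.19 ± 0.234 to 3.69 ± 0.357 FPKM (log2 change 1.11, limma adjusted p = 2.31e-07). N4bp1, which encodes a protein with a ribonuclease domain related to Regnase, went from 7.93 ± 0.862 to 15.7 ± 0.394 FPKM (log2 change 0.91, limma adjusted p = 6.18e-08). Ybx1, an abundant cold shock protein that coats mRNAs, fell from 218 ± 2.39 to 130.2 ± 5.25 FPKM (log2 change -0.74, limma adjusted p = 1.60e-09). Hnrnpab fell from 59.6 ± 5.73 to 45.7 ± 2.98 FPKM, and the poly(C)-binding protein gene Pcbp1 did not pass, at 100.9 ± 10.9 and 93.5 ± 4.15 FPKM (limma adjusted p = 0.215).

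In the 3 lists of the general decay machinery 25% to 36.8% of the tested genes were called, beside 60.4% of all tested genes, a difference that was not tested. Of 19 deadenylation genes, all tested, 3 rose, 4 fell and 12 did not pass, which is 36.8% called with a median log2 fold change of 0.09. The rise was led by Btg1, whose product binds the CCR4-NOT deadenylases, with 67.1 to 80.1 FPKM in untreated and 152 to 194 FPKM in PLG samples. Its mean went from 74.6 ± 5.06 to 173 ± 15.8 FPKM (log2 change 1.20, limma adjusted p = 2.39e-09), and its relative Btg2 from 13.8 ± 1.16 to 17.2 ± 2.84 FPKM (limma adjusted p = 0.0325) with groups that overlapped. Tob2, of the same protein family, fell from 12.2 ± 0.734 to 7.07 ± 0.675 FPKM (log2 change -0.72, limma adjusted p = 8.40e-07). The deadenylase gene Cnot6l fell from 11.9 ± 1.3 to 8.72 ± 0.132 FPKM, and Cnot6 did not pass, at 14.99 ± 0.772 and 16.1 ± 1.25 FPKM (limma adjusted p = 0.194).

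Of 18 listed genes of decapping and decay from the 5′ end 16 were tested, 3 rose, 1 fell and 12 did not pass, which is 25% called with a median of 0.06. Ddx6, the helicase that activates decapping, rose from 35.3 ± 1.16 to 56.9 ± 3.85 FPKM (log2 change 0.67, limma adjusted p = 6.09e-08), and Dcp1a, a cofactor of the decapping enzyme, from 4.93 ± 0.577 to 8.24 ± 0.464 FPKM. Lsm2, a subunit of the ring that binds deadenylated ends, fell from 3.59 ± 0.896 to 1.92 ± 0.428 FPKM. Upf1, the helicase of nonsense-mediated decay, which also serves Regnase-1, did not pass, at 31.9 ± 2.48 and 32.4 ± 1.71 FPKM (limma adjusted p = 0.752). Of 16 listed genes of the exosome and the SKI complex, which degrade mRNA from the 3′ end, 14 were in the table and tested, 2 rose, 3 fell and 9 did not pass, which is 35.7% called with a median of -0.11. The exosome subunit gene Exosc4 rose from 5.71 ± 0.975 to 8.81 ± 0.533 FPKM, as did Exosc3 (6.22 ± 1.54 and 8.27 ± 0.95 FPKM). The catalytic subunit gene Dis3 fell from 2.19 ± 0.207 to 1.36 ± 0.219 FPKM and Exosc8 from 2.98 ± 0.510 to 2.11 ± 0.336 FPKM, while the helicase gene Skiv2l of the SKI complex did not pass, at 18.5 ± 1.85 and 19.8 ± 1.92 FPKM (limma adjusted p = 0.324). Leaving out PLG 3 or PLG 5 reduced the count of called exosome genes from 5 to 3.

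The promoters of Zfp36 and Zfp36l1 are shown as those of the ZFP36 genes that rose, each with 1 of the searched elements before the start of transcription. RefSeq promoters on GRCm38.p6, 250 bases before to 50 after the start, were matched for 6 of the 7 genes, and Zfp36l2 was not matched. Both strands were searched for 5 elements, and matches are descriptions only. Zfp36 held a CArG box, the core of the serum response element, 58 bases before the start, as did 1.63% of 32851 promoters. Zfp36l1 held TATAAA 29 bases before the start, as did 13.6% of promoters. Rc3h1 held TGACTCA, 1 of the 2 AP-1 forms searched (TGACTCA and TGAGTCA, 5.2% of promoters), 133 bases before the start. TGACG, part of the cAMP response element (20.8% of promoters), was in Zc3h12a, on the opposite strand 5 bases after the start. It was also in a promoter of Zc3h12c (chr9:52149314-52149613), 133 bases before the start. A kappa B element (8.46%) was in a different promoter of Zc3h12c (chr9:52168357-52168656), 236 bases before the start on the opposite strand. None of the 5 was in Elavl1. The 250 bases before the start are given 5′ to 3′, with capitals for the CArG box of Zfp36 (chr7:28379229-28379478, minus strand, from the RefSeq start that lies inside the deposited gene) and for TATAAA of Zfp36l1 (chr12:80113014-80113263, minus strand).
Zfp36: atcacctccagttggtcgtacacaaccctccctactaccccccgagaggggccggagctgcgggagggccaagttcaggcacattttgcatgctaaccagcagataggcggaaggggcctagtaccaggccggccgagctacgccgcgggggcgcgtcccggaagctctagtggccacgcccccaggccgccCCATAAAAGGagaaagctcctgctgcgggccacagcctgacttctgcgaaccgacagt
Zfp36l1: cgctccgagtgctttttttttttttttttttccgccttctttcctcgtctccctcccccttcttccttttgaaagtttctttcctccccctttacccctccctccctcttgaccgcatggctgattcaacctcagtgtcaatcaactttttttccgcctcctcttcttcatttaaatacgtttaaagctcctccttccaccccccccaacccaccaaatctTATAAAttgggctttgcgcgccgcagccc

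The genes whose levels over the 10 samples were most like those of each called regulator were found by Pearson's r of log2(FPKM + 1). Since the 2 groups set most of this likeness, r above 0.95 was common, with 891 to 1071 genes for each of the 5 regulators of larger change and 34 for Rc3h1. Nearest to Zfp36 were Stk4, Tmem150c and Psd3 (r = 0.996 each), and nearest to Zfp36l1 were Pik3cg (0.998), Ogfrl1 and Socs1 (0.997 each). Nearest to Zfp36l2 were Man1c1 (0.998), Dok2 and Rnf150 (0.997 each), which fell as well. Dpysl5 (0.998), Dlgap3 and Abtb2 (0.997 each) were nearest to Zc3h12a, and Nab1, Kpna3 and Vasp (0.994 each) to Zc3h12c. For Rc3h1 these were Ythdf3 (0.981), Pikfyve (0.98) and Igip (0.977). Socs1, a feedback inhibitor of cytokine signalling, went from 5.27 ± 1.16 to 17.6 ± 1.83 FPKM, and Man1c1, a mannosidase of the Golgi, from 40.3 ± 2.90 to 11.9 ± 0.936 FPKM.

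**Figure D4:**
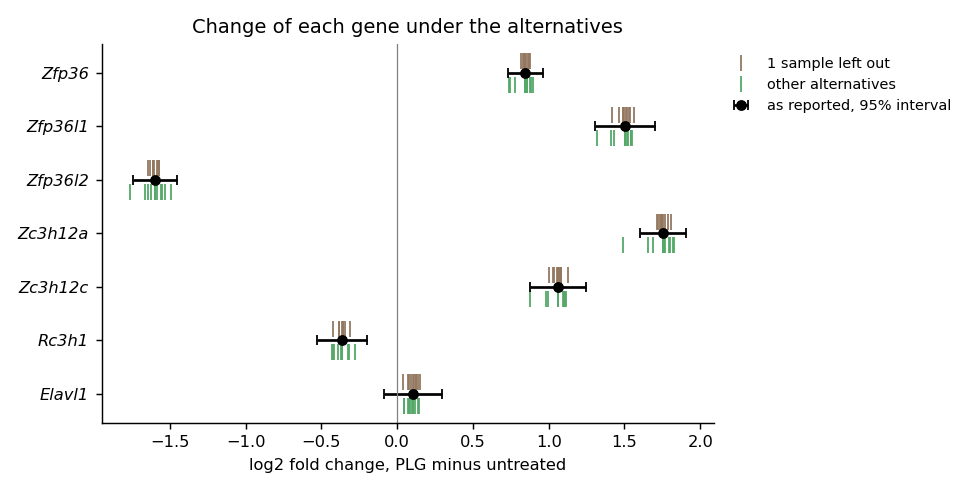
Log2 fold change of each regulator, PLG minus untreated (horizontal axis), as reported with its 95% interval (black) and under 24 alternatives (10 with 1 sample left out in brown, 14 others in green). The direction of each of the 7 genes is the same under all 24 alternatives, with Zfp36 between 0.74 and 0.89, Zfp36l1 between 1.32 and 1.56, Zfp36l2 between -1.77 and -1.50, and Zc3h12a between 1.49 and 1.83.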

How the data were processed

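RNA of 10 samples was sequenced by the authors from total RNA, isolated with a column kit and made into libraries with a NuGen kit per the labels' protocols. The deposited table holds FPKM made by the authors. STAR 2.7.3a, featureCounts 2.0.0, cutadapt 2.10, DESeq2 1.24.0, FastQC 0.11.9 and the build GRCm38.p6 are listed, without roles, in the submitters' processing notes. Which annotation was counted, and how multiply matching reads were handled, is not stated there. All 7 genes have the same coordinates in GENCODE release M21 (GRCm38), of which 16921 table identifiers were found without their version.

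Groups came from the sample titles. Values were analysed as log2(FPKM + 1) in limma 3.58.1 (R 4.3.3) with an intensity trend and treatment as the only term, over 9997 genes at 1 FPKM or more in at least 5 samples. Single values and paralog pairs were compared by exact permutation over 252 assignments. FPKM times gene length fell on whole multiples of 1 read, within 0.1 read, for 100% of the low values tested, which gave denominators of 31977186 to 70736906 reads, the smallest that fit, and 0.0141 to 0.0313 FPKM for 1 read on 1 kb. Odd read numbers made up 46.7% to 52.2% of these values in each sample, and a doubled denominator would leave even numbers alone. Precision was judged from the spread between samples, and no counting interval was used. Simulated data for this comparison held 9997 genes, of which 9797 were unchanged, and the fit called 6 of these. Of 50 genes at each fold change it called 40% at 1.25-fold, 88% at 1.5-fold, 94% at 2-fold and 100% at 4-fold. In the samples themselves 60.4% of the tested genes were called. The share called at each fold change with so many genes changed was not tested.

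The 7 genes, the lists and the markers were chosen with earlier results of these data known. Named in each list were the 2 called genes with the largest rise, the 2 with the largest fall and the most abundant one that did not pass, and for each called regulator the 3 genes most like it. Genes named outside this rule are marked as chosen after their values were seen. Alternatives were pseudocounts of 0.1 and 5, no filter or 5 FPKM, 3 other scalings, eBayes without trend or robust, array weights, voom on recovered reads, a replicate block and leaving out each sample. Chosen after seeing the data were removal of 4 repeat-like gene models and leaving out the 3 samples lowest in them.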

Additional observations from a re-analysis of the deposited data

Results flagged for a closer look

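Each group of 5 samples was examined for a sample far from the others, which made 14 groups for the 7 genes, and chance marks about 1 in 20 such groups. In the PLG group of Rc3h1, PLG 4 stood at 10.776 FPKM, above the other 4 samples at 9.86 to 10.02 FPKM. Its gap to the nearest sample was 0.822 of the group's range, above the critical value of 0.71. Without PLG 4 the fall of Rc3h1 was -0.39 on the log2(FPKM + 1) scale (limma adjusted p = 0.00154).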

How the results depend on the processing

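Of 432 values recomputed under the alternatives 415 kept their direction and their side of the threshold (for counts, stayed within 1.5 times), and 0 changed direction. The regulators called numbered 5 to 6 of 7, and the calls over all genes 4318 to 6755. Elavl1 kept adjusted p between 0.132 and 0.743. Scaling to a common sum moved Rc3h1 to -0.32 (limma adjusted p = 0.0548) and the called genes to 8 for other mRNA-binding proteins, 4 for deadenylation, 3 for the exosome and SKI complex and 6 for kinases, phosphatases and adaptors, and the cause was not tested. The exosome count was 3 with no filter, 2 of 4 tested with a filter of 5 FPKM, 3 to 5 with 1 sample left out, and 3 without untreated 2, PLG 3 and PLG 4. Without those 3 samples, the AU-rich targets had 6 called of 7 tested and the stem-loop targets 4 of 5, since fewer genes met the filter of 5 samples. With 1 sample left out the AU-rich count was 6 to 11. The median log2 change of all genes lay between -0.075 and 0.022 throughout. The replicate block called 5785 genes and 6 of the 7 regulators and changed no call of a regulator. Same-numbered samples deviated together with correlations of -0.121 to 0.0988, so the numbers were not read as pairs. Depth limits low genes of the lists, while each value of the 7 regulators rested on at least 1028 reads.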
